A study of Mus musculus with 12 samples.

Results

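Undifferentiated mouse embryonic stem cells of the control line shSC were compared with the same line after 2 days as embryoid bodies. The comparison takes the 2 Day 2 libraries of this line against its 2 Day 0 libraries, that is 4 of the 12 libraries of the series, chosen by their sample titles, and 15325 of the 24495 genes of the count table passed the count filter. The study made RNA-seq from shSC and from shCTSL, a line with an shRNA against cathepsin L, at Day 0, Day 2 and Day 4 of differentiation, with 2 libraries in each of the 6 groups. The lines were derived from CCE-Nanog-GFP mESCs, which carry a GFP reporter of the pluripotency gene Nanog. Both carry an integrated lentiviral shRNA and were selected with puromycin; the titles call the control line scr and its genotype label is WT. Day 0 cells were grown on gelatin with LIF, a cytokine that holds mESCs in self-renewal, and cells positive for GFP were sorted before the experiments. For Day 2, LIF was withdrawn, all-trans retinoic acid was added and cells were kept in suspension under rotation, where they aggregate. Loss of LIF, retinoic acid, aggregation and time therefore cannot be told apart here, and there was 1 control line.

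Total counts per library were 15510058 and 19344654 at Day 0 and 27155553 and 20783323 at Day 2. The Day 4 libraries of shSC, with 21885578 and 13434182 counts, were in the same fit and lend their spread to it, which leaves 3 residual degrees of freedom. Values below are CPM, counts scaled to library total and TMM factor, given for replicate 1 and then replicate 2. Log2 fold changes are Day 2 over Day 0 with the standard error (SE) of the fit, from n = 2 libraries a group. A gene counted as called when its Benjamini-Hochberg adjusted p was below 0.05 and its levels differed 1.5-fold or more. Replicates lay close together: the SD over genes of the log2 ratio between replicates was 0.225 at Day 0 and 0.178 at Day 2. Their counts differed by more than counting noise, with a chi-square per degree of freedom of 2.51 and 9.99. The study calls its replicates biological, but nothing says whether they came from separate cultures, so the p-values measure only the spread between these libraries, part of which may be technical. For genes with few counts at Day 0 the change can move by over 1.5-fold when 1 library is left out, and where that holds for a fold printed below the fitted value without that library is given.

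Embryonic stem cells are held in a self-renewing state by a network of transcription factors around Oct4 (Pou5f1), Sox2 and Nanog, which LIF feeds through the kinase JAK and the transcription factor STAT3. Retinoic acid is a small lipophilic ligand that enters the nucleus and binds receptors of the RAR family, which sit on DNA as partners of RXR and turn from repressors into activators when they hold ligand. Its known targets include its own breakdown enzymes and receptors and the 3' genes of the Hox clusters, which give cells their position along the body axis.

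The Day 0 label was checked with 7 markers of undifferentiated mESCs. Their summed level was 5503 and 5609 CPM at Day 0 and 872 and 870.0 CPM at Day 2 and all 7 were called lower at Day 2. The label of the Day 0 libraries thus had its markers. Markers of extraembryonic endoderm summed to 13.8 and 13.8 CPM at Day 0 and 279 and 282 CPM at Day 2 and those of fibroblasts to 11 and 10.1 CPM at Day 0 and 31.2 and 31.9 CPM at Day 2. Endothelial and blood markers summed to 90.6 and 91.5 CPM at Day 0 and 178 and 189 CPM at Day 2. For these 3 types the sums were higher in both Day 2 libraries than in both Day 0 libraries. Of the tested markers, 8 of 9, 5 of 6 and 4 of 6 were called higher and 0, 1 and 2 lower. Kdr alone gained about as much CPM as the endothelial and blood sum. The top markers at Day 2 were Gata6 for extraembryonic endoderm and Col1a2 for fibroblasts, and neither made up most of its set's sum. Of 4 nascent mesoderm markers tested, 1 was called higher, Eomes, and 1 lower, with a median of -0.26, and their sum went from 8.21 and 5.32 to 21.9 and 20.5 CPM. Of 6 neural markers, 1 was called higher and 1 lower, with a median of 0.03. Their sum was 226 and 239 CPM at Day 0 and 135 and 136 CPM at Day 2, a decrease smaller than that of Tubb3 alone. Of 5 trophoblast markers tested, 3 were called higher and 0 lower, but Gata3, which surface ectoderm also expresses, made up most of their Day 2 sum (3.28 and 4.23 CPM at Day 0 and 53.7 and 50.4 CPM at Day 2). Afp, Ttr and Plac1 had 0 counts at Day 0. In bulk libraries such as these, fewer cells of a type and less RNA per cell cannot be told apart.

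Of the 15325 genes tested, 8732 (57.0%) were called changed, 4864 (31.7%) higher and 3868 (25.2%) lower at Day 2. These shares are the background for every list below; where a list's count is given, its other tested members were not called. Genes were named by a rule on size of change, and those outside it (among them Esrrb, Otx2, Hoxb13, Igf2 and Id3) were chosen after their values were seen. Where the Day 0 and Day 2 libraries of a named gene are said not to overlap, that largely follows from this choice. Increases were larger than decreases: 1171 genes rose and 180 fell by at least 8-fold in the fitted change, and 405 and 25 by at least 32-fold. Over all genes tested the median change was 0.06 on the log2 scale. The most abundant genes leaned the other way: among the 1000 with the highest CPM, 523 were called lower and 59 higher, with a median of -0.63. The 1000 genes with the most counts of each library took 48.5 and 48.6% of its counts at Day 0 and 41.5 and 42.1% at Day 2. The TMM factors, 0.865 and 0.856 against 1.1 and 1.09, take this into account. Scaled by library totals alone, every change shifts up by a median of 0.35 on the log2 scale, and the calls split into 6416 higher and 2314 lower (73.5% higher, against 55.7% with TMM). Changes are given relative to the TMM scale, and a decrease smaller than that shift can change sign with library totals alone.

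**Figure D1:**
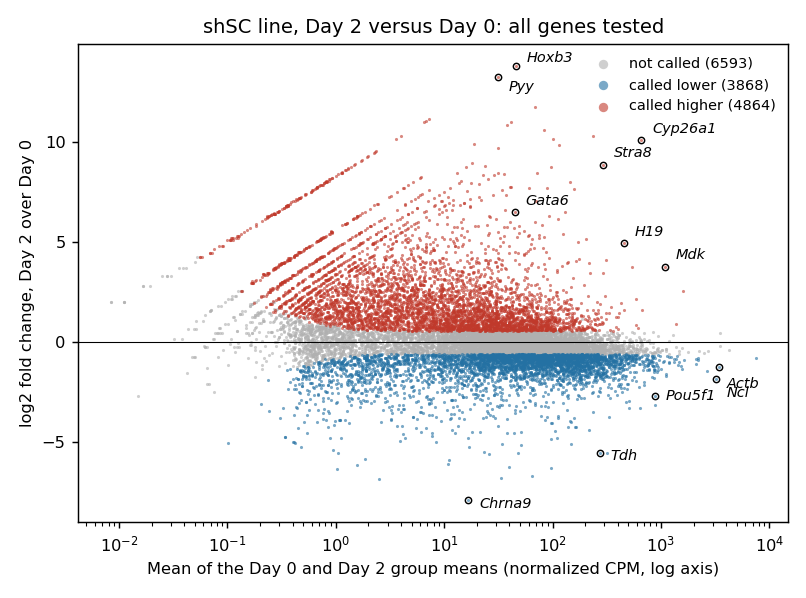
Each point is 1 of the 15325 genes tested; the x axis is the mean of the Day 0 and Day 2 group means in normalized CPM on a log axis and the y axis the fitted log2 fold change of Day 2 over Day 0. Genes called higher (4864, red) reach larger changes than genes called lower (3868, blue), and the diagonal lines of points at the left are genes with few or 0 counts at Day 0, whose fitted change depends on the prior count.

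The pluripotency network fell. Of 24 naive pluripotency genes tested, 21 were called lower and 0 higher, with a median log2 fold change of -2.36, and of 18 general pluripotency genes 16 were called lower and 0 higher, with a median of -2.18. Library totals alone left 20 and 15 called lower. Pou5f1, which encodes Oct4, was at 1512 and 1528 CPM at Day 0 and 241 and 231 CPM at Day 2 (log2 fold change -2.69 ± 0.063, edgeR adjusted p = 2.31e-13). Nanog was at 535 and 529.8 CPM at Day 0 and 125 and 129 CPM at Day 2 (log2 fold change -2.07 ± 0.057, edgeR adjusted p = 1.05e-12). Sox2, the partner of Oct4 on DNA, was at 758 and 838 CPM at Day 0 and 185 and 196 CPM at Day 2 (log2 fold change -2.07 ± 0.072, edgeR adjusted p = 8.51e-12). For all 3 genes both Day 2 libraries lay below both Day 0 libraries, though all 3 were still above 100 CPM. By Day 4 Pou5f1 was at 72.4 and 64.8 CPM and Nanog at 48.9 and 47.4 CPM.

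Other members fell further. Tdh, threonine dehydrogenase, an enzyme that mESCs depend on, was at 522 and 544 CPM at Day 0 and 11.7 and 11.2 CPM at Day 2 (log2 fold change -5.54 ± 0.075, edgeR adjusted p = 4.73e-15). Tcl1, a coactivator of the kinase AKT, was at 104 and 93.3 CPM at Day 0 and 2.61 and 3.17 CPM at Day 2 (log2 fold change -5.11 ± 0.12, edgeR adjusted p = 1.58e-13). Tdgf1, the Nodal co-receptor Cripto, was at 603 and 639.5 CPM at Day 0 and 13 and 14.1 CPM at Day 2 (log2 fold change -5.52 ± 0.11, edgeR adjusted p = 3.85e-14). In each the groups were far apart and the replicates within a few CPM of each other at Day 2. Foxd3, a forkhead repressor, had a log2 fold change of -5.53 ± 0.12, and the orphan nuclear receptor genes Esrrb and Nr0b1 changed by -2.93 ± 0.10 and -4.76 ± 0.075. Zfp42 (Rex1), which marks the naive state, went from 904 and 948 CPM at Day 0 to 95.3 and 92.6 CPM at Day 2 (log2 fold change -3.3 ± 0.060, edgeR adjusted p = 2.47e-14). L1td1, an RNA-binding protein, was at 1554 and 1591 CPM at Day 0 and 179 and 176 CPM at Day 2 (log2 fold change -3.15 ± 0.058, edgeR adjusted p = 2.52e-14). There were few exceptions: Tbx3, Gbx2 and Dppa3 among the naive genes, and Lin28b and Tcf3 among the general ones, were not called, either for an adjusted p above the threshold or for a change under 1.5-fold. Tbx3 stood at 247 and 249.9 CPM at Day 0 and 293 and 269 CPM at Day 2 and Lin28b, a blocker of let-7 maturation, at 81 and 76.9 CPM at Day 0 and 83.1 and 92.8 CPM at Day 2. With library totals alone Tcf3 was called higher (0.76), and without replicate 2 of Day 0 Dppa3 was called lower (-0.62).

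Genes of the later, formative and primed states did not move together: of 16 tested, 6 were called higher and 6 lower (median -0.06, or 0.29 with library totals alone, with the same counts). Sall2, a zinc finger factor, rose from 10.7 and 9.49 CPM at Day 0 to 136 and 135 CPM at Day 2 (log2 fold change 3.76 ± 0.080, edgeR adjusted p = 9.56e-14), and Sox3 from 5.74 and 5.8 CPM at Day 0 to 41.4 and 40.9 CPM at Day 2 (log2 fold change 2.83 ± 0.11, edgeR adjusted p = 2.20e-11). Fgf5, the usual marker of primed cells, was called higher but stayed low, at 0.373 and 0.242 CPM at Day 0 and 1.17 and 1.01 CPM at Day 2. Otx2, a regulator of the step into the formative state and of head development, fell from 10.5 and 10.3 CPM at Day 0 to 0.737 and 0.705 CPM at Day 2 (log2 fold change -3.84 ± 0.21, edgeR adjusted p = 9.50e-10). The ETS factors Etv4 and Etv5, both targets of FGF signalling, fell (log2 fold changes -4.02 and -1.14). For these genes the pairs of libraries did not overlap.

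Of 16 genes of the LIF and STAT3 pathway, 12 were called lower and 1 higher (median -1.59). Klf4, Tfcp2l1 and Gbx2 of this list are also in the naive pluripotency list. LIF had been withdrawn for the Day 2 cells, but its loss cannot be told apart from retinoic acid, aggregation and time. Socs3, the feedback inhibitor that STAT3 induces, was at 157 and 165 CPM at Day 0 and 11 and 10.9 CPM at Day 2 (log2 fold change -3.88 ± 0.077, edgeR adjusted p = 4.72e-14). Klf4, a pluripotency factor downstream of STAT3, was at 287 and 296 CPM at Day 0 and 21.1 and 21.7 CPM at Day 2 (log2 fold change -3.77 ± 0.075, edgeR adjusted p = 4.76e-14). Tfcp2l1, another, was at 597 and 581 CPM at Day 0 and 84.58 and 85.1 CPM at Day 2 (log2 fold change -2.8 ± 0.073, edgeR adjusted p = 6.33e-13). All 3 were lower in both Day 2 libraries than in both Day 0 libraries. Stat3 itself fell by 1.37 on the log2 scale. The kinase gene Jak2 was the exception, at 9.1 and 8.82 CPM at Day 0 and 57.1 and 57.7 CPM at Day 2 (log2 fold change 2.68 ± 0.10, edgeR adjusted p = 1.08e-11).

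**Figure D2:**
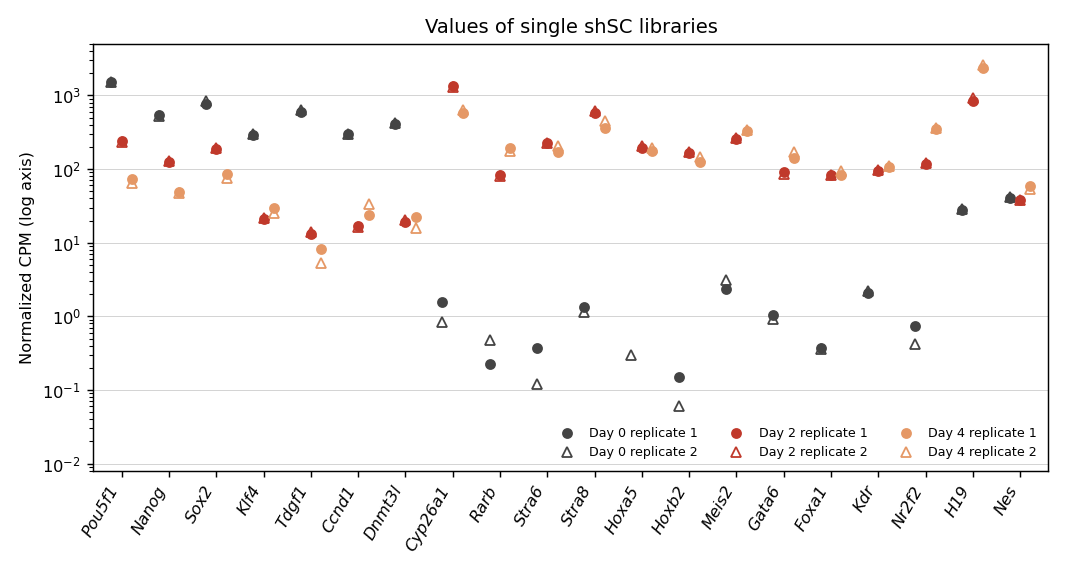
Normalized CPM of 20 named genes on a log axis, 1 point a library; filled circles are replicate 1 and open triangles replicate 2 of Day 0 (dark), Day 2 (red) and Day 4 (orange) of the shSC line. The Day 2 points of Pou5f1 lie at 241 and 231 CPM, below its Day 0 points, and those of Cyp26a1 at 1335 and 1291 CPM, above them, while those of Nes are near its Day 0 points.

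Retinoid genes gave some of the largest increases. Of 16 known target genes of retinoic acid, 14 were called higher and 0 lower, with a median log2 fold change of 6.24; Gbx2 and Cebpb were not called, though Cebpb was with library totals alone, without replicate 2 of Day 0 (0.66) and without replicate 1 of Day 2 (0.73). Among 17 genes of retinoid binding, synthesis and breakdown, 13 were called higher and 1 lower (median 3.87). The latter genes summed to 53.7 and 55.7 CPM at Day 0 and 2533 and 2482 CPM at Day 2. The enzymes that break retinoic acid down led them. Cyp26a1, a cytochrome P450 that oxidizes retinoic acid (chr19:37772298-37776018 in mm9), was at 1.57 and 0.846 CPM at Day 0 and 1335 and 1291 CPM at Day 2 (log2 fold change 10.12 ± 0.13, edgeR adjusted p = 2.47e-15). Cyp26b1, its paralog, was at 0.448 and 0.302 CPM at Day 0 and 483 and 463 CPM at Day 2 (log2 fold change 10.31 ± 0.12, edgeR adjusted p = 2.27e-15). Both were close to silent in both Day 0 libraries. Per kb of exon, Cyp26a1 stood at 740.5 and Cyp26b1 at 103 CPM in the Day 2 mean. By Day 4, Cyp26a1 was at 576 and 626 CPM.

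Stra6, the cell surface receptor that takes up retinol from its carrier, was at 0.373 and 0.121 CPM at Day 0 and 226 and 229 CPM at Day 2 (log2 fold change 9.89 ± 0.19, edgeR adjusted p = 4.10e-14; 10.8 without replicate 1 of Day 0 and 9.22 without replicate 2). Crabp2, which carries retinoic acid to the receptors, was at 4.1 and 2.96 CPM at Day 0 and 127 and 125 CPM at Day 2 (log2 fold change 5.18 ± 0.15, edgeR adjusted p = 1.60e-12). Dhrs3, which turns retinaldehyde back into retinol, was at 0.97 and 0.725 CPM at Day 0 and 180.0 and 177 CPM at Day 2 (log2 fold change 7.73 ± 0.11, edgeR adjusted p = 8.09e-15). The replicates of each differed little beside these changes. Aldh1a3, a retinaldehyde dehydrogenase, was the member of the binding, synthesis and breakdown list called lower, at 0.97 and 0.906 CPM at Day 0 and 0.234 and 0.22 CPM at Day 2, and its paralog Aldh1a2 did not pass at 1.49 and 1.57 CPM at Day 0 and 1.98 and 2.69 CPM at Day 2, but was at 101 and 119.7 CPM at Day 4. It was called higher at Day 2 without replicate 1 of Day 2 (0.81) and in 4 other settings, library totals among them.

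Of 12 receptor and cofactor genes, 5 (41.7%) were called higher and 3 lower (median 0.27), not far from the shares over all genes tested. Rarb, itself a target, was at 0.224 and 0.483 CPM at Day 0 and 81.9 and 80.9 CPM at Day 2 (log2 fold change 7.77 ± 0.16, edgeR adjusted p = 6.95e-14; 8.47 without replicate 2 of Day 0). Rarg fell, from 298 and 315 CPM at Day 0 to 97.7 and 92.4 CPM at Day 2 (log2 fold change -1.69 ± 0.067, edgeR adjusted p = 3.14e-11), and Rara changed by under 1.5-fold, at 87.6 and 84.9 CPM at Day 0 and 122 and 112 CPM at Day 2, and was called higher with library totals alone. At Day 2 the 3 RAR genes thus stood within a narrower span than at Day 0: per kb of exon, the Day 0 means were 0.107 for Rarb, 74.6 for Rarg and 18.9 CPM for Rara, and the Day 2 means 24.7, 23.1 and 25.6 CPM. Rxra, a partner of the RARs, had a log2 fold change of 1.04 ± 0.080. Nr2f1 and Nr2f2, the COUP-TF orphan receptors, changed by 7.27 ± 0.33 and 7.7 ± 0.13, and Nr2f2 went from 0.746 and 0.423 CPM at Day 0 to 117 and 122 CPM at Day 2; Nr2f1 was at 8.35 without replicate 1 of Day 0 and 6.55 without replicate 2. Both Nr2f2 values at Day 2 were above 100 CPM and both at Day 0 below 1 CPM. The corepressor gene Ncor1 was called lower, at 595 and 577 CPM at Day 0 and 369 and 379 CPM at Day 2, and lost that call with library totals alone.

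RAR and RXR bind a pair of half-sites in the same orientation, best known with 5 bases (DR5) or 2 bases (DR2) between them. Half-sites AGGTCA or AGTTCA or GGGTCA or GGTTCA were searched on both strands in the 300-base promoters of RefSeq (GRCm38.p6), of which 14783 belong to 11634 of the genes tested. A DR5 was in 7 of them, 4 of the 4705 promoters of genes called higher and 1 of the 3585 of genes called lower. A DR2 was in 13 of all, 6 of those called higher and 3 of those called lower. Of the 58 genes called higher from the retinoid and Hox lists, 35 had a promoter in the table and 2 of these held a DR5, Cyp26a1 and Rarb. Their promoters are shown because both genes rose; capitals mark the half-sites, and a match is a description of the sequence. The Cyp26a1 promoter lies at chr19:37697558-37697857, plus strand, with half-sites that read on the opposite strand, and that of Rarb at chr14:16575427-16575726, minus strand, both in GRCm38.p6.
Cyp26a1: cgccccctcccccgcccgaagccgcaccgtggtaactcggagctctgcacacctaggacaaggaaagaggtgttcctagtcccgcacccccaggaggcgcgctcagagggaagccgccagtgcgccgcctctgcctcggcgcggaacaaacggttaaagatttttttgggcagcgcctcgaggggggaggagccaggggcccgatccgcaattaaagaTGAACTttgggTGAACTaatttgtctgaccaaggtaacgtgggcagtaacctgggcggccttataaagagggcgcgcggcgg
Rarb: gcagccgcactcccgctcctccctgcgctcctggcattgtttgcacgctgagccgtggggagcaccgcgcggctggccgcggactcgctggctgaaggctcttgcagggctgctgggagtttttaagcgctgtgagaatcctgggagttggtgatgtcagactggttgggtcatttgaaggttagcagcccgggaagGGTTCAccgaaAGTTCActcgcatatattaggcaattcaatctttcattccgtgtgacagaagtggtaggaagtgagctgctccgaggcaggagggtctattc

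The Hox genes encode homeodomain factors in 4 clusters, numbered 1 to 13 from the 3' to the 5' end. Of 39 in the count table, 33 were tested, 31 were called higher and 0 lower. Their median change was 7.63 on the log2 scale, or 7.08 with bounds, that is with genes at 0 counts in a group set to their lower bound and genes at 3 counts or fewer in both groups left out. The 6 not tested were Hoxa11, Hoxc11, Hoxc12, Hoxd10, Hoxd11 and Hoxd12, which had low counts at every time. Summed over all 39 genes, the level was 13.9 and 13.9 CPM at Day 0 and 1749 and 1794 CPM at Day 2, so the family was near silent in both Day 0 libraries. Most members passed the filter through later libraries, which favours calls of higher. Of paralog numbers 1 to 9, 27 genes were called higher, against 4 of the 6 tested of numbers 10 to 13. Paralogs 1 to 9 summed to 1659 and 1713 CPM at Day 2 and paralogs 10 to 13 to 89.9 and 80.6 CPM.

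Cluster B had the largest sum. It lies on chromosome 11 (chr11:96055630-96229570 in mm9) and summed to 2.39 and 2.48 CPM at Day 0 and 968 and 983 CPM at Day 2. Cluster A on chromosome 6 summed to 518 and 537, cluster C on chromosome 15 to 189 and 206 and cluster D on chromosome 2 to 74.4 and 67.5 CPM at Day 2. The 4 clusters differ in their number of genes, so the sums are not levels per gene. Hoxb3 had 0 counts in both Day 0 libraries and stood at 93.3 and 89.2 CPM at Day 2, at least 914-fold higher against a floor of 3 counts over the 2 Day 0 libraries. Hoxb1, a 3' gene used in the hindbrain, had 1 count over the Day 0 libraries and 137 and 139.9 CPM at Day 2, a ratio of 4147-fold (counting interval 744 to 163825). It was at 18.4 and 31.1 CPM at Day 4, below its Day 2 values. Hoxb2 was 1659-fold (counting interval 568 to 8046) higher. Hoxb5 and Hoxb6 were 2493-fold (counting interval 447 to 98506) and 2255-fold (counting interval 404 to 89072) higher. Leaving out a Day 0 library moved these fitted values by over 1.5-fold. Without replicate 1 of Day 0 the log2 fold change was 11.02 for Hoxb1, 11.29 for Hoxb2 and 10.29 for Hoxb5, and without replicate 2 it was 9.86 for Hoxb6, against 11.77, 10.61, 11.04 and 10.89 with all libraries. Leaving out the other Day 0 library removes the single Day 0 count of Hoxb1, Hoxb5 and Hoxb6, and the fitted values, 14.48, 13.75 and 13.65, then depend on the prior count. The intervals are 95% and, like the floors, cover counting error alone. Hoxb5os, an antisense gene beside Hoxb5, rose too, but the sources used here do not give the strand setting of the counting, so reads of the pair cannot be told apart.

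In cluster A, Hoxa5 was at 0 and 0.302 CPM at Day 0 and 194 and 205 CPM at Day 2 (log2 fold change 10.17 ± 0.20, edgeR adjusted p = 4.10e-14). It had 5 counts in all at Day 0, all in replicate 2, so its fitted change was 9.33 without replicate 1 of Day 0 and is no estimate without replicate 2, and it was high in both Day 2 libraries. Hoxb4 and Hoxb8 had log2 fold changes of 8.43 ± 0.18 and 8.77 ± 0.14. The far 5' genes were uneven. Hoxb13, which lies apart from the rest of cluster B, rose from 0.224 and 0.121 CPM at Day 0 to 62.3 and 53.7 CPM at Day 2 (log2 fold change 8.39 ± 0.28, edgeR adjusted p = 6.78e-12), whereas Hoxc13, at 2.24 and 1.81 CPM at Day 0 and 1.77 and 1.98 CPM at Day 2, and Hoxd13, at 2.16 and 2.3 CPM at Day 0 and 2.81 and 2.51 CPM at Day 2, were not called; with library totals alone Hoxd13 was called higher and the small decrease of Hoxc13 changed sign, as it did without replicate 1 of Day 0 (0.039).

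**Figure D3:**
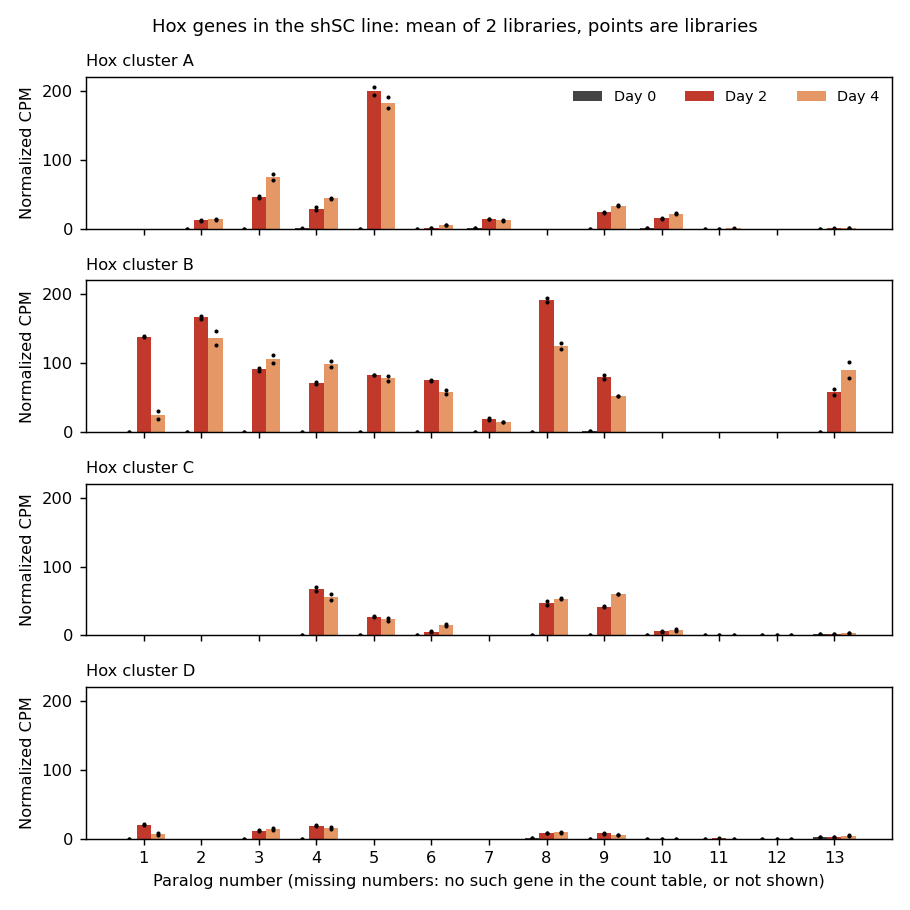
Mean normalized CPM of Hox genes at Day 0, Day 2 and Day 4 of the shSC line (bars, n = 2 libraries; dots are the libraries) by paralog number along the x axis, with 1 panel for each of clusters A to D on the same y axis. Day 0 bars are at or near 0 throughout, and at Day 2 bars are tallest among the low and middle numbers of clusters A and B; CPM is not divided by gene length, and a gap is a gene that is absent from the count table or not shown.

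Hox proteins bind DNA with TALE homeodomain partners. Of 11 TALE and Cdx genes tested, 9 were called higher and 0 lower (median 2.51). Meis2 was at 2.39 and 3.14 CPM at Day 0 and 253 and 264 CPM at Day 2 (log2 fold change 6.53 ± 0.10, edgeR adjusted p = 1.03e-14). Meis1 was at 2.39 and 2.9 CPM at Day 0 and 152 and 163 CPM at Day 2 (log2 fold change 5.88 ± 0.10, edgeR adjusted p = 2.09e-14). Both genes were below 4 CPM in both Day 0 libraries and above 100 CPM in both Day 2 libraries. Cdx1, a caudal-type factor that acts upstream of Hox genes, was at 3.58 and 3.2 CPM at Day 0 and 46.6 and 38.9 CPM at Day 2 (log2 fold change 3.66 ± 0.14, edgeR adjusted p = 2.58e-11) and back at 7.6 and 7.14 CPM at Day 4.

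Endoderm regulators rose broadly: 13 of 14 were called higher and 1 lower (median 3.1). Gata6, a zinc finger factor at the head of primitive endoderm specification, was at 1.04 and 0.906 CPM at Day 0 and 89.9 and 86.7 CPM at Day 2 (log2 fold change 6.5 ± 0.17, edgeR adjusted p = 5.89e-13). Foxa1, a pioneer forkhead factor, was at 0.373 and 0.362 CPM at Day 0 and 82.6 and 82.1 CPM at Day 2 (log2 fold change 7.79 ± 0.16, edgeR adjusted p = 7.71e-14). Foxq1, another forkhead gene, was at 0.373 and 0.181 CPM at Day 0 and 40.1 and 43.1 CPM at Day 2 (log2 fold change 7.25 ± 0.49, edgeR adjusted p = 7.26e-09). For these genes both Day 0 libraries were near or below 1 CPM. Gata4 and Sox17 had log2 fold changes of 2.79 ± 0.12 and 6.84 ± 0.33. Prdm1, a repressor also used in germ cells, was at 22.6 and 19.9 CPM at Day 0 and 108 and 111 CPM at Day 2.

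A further list held genes of extraembryonic endoderm, among them those of secreted and uptake proteins. Of 28 tested, 20 were called higher and 0 lower (median 3.32, or 3.07 with bounds). Members with 0 counts at Day 0, such as Ttr and Afp, passed the filter through later libraries, which favours calls of higher. Dab2, an endocytic adaptor, had a log2 fold change of 4.14 ± 0.11. Ttr, transthyretin, had 0 counts at Day 0 and 6.96 and 7.32 CPM at Day 2, at least 71.1-fold higher against a floor of 3 counts over the Day 0 libraries, and then 90.5 and 75.9 CPM at Day 4. Afp, alpha-fetoprotein, went from 0 counts to 1.61 and 2.12 CPM at Day 2 and 45.2 and 33.4 CPM at Day 4. These late products were thus still low at Day 2 beside Day 4. Apoe, a lipid carrier, changed by under 1.5-fold, at 437 and 472 CPM at Day 0 and 367 and 360.3 CPM at Day 2, and with library totals alone its small decrease became an increase.

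Of 24 basement membrane genes, 13 were called higher and 3 lower (median 0.82). The chains of collagen IV, the network of this matrix, rose: Col4a1 had a log2 fold change of 2.87 ± 0.078 and Col4a2 of 3.62 ± 0.080, and Col4a5 was at 0.0746 and 0.362 CPM at Day 0 and 7.97 and 8.99 CPM at Day 2 (log2 fold change 5.14 ± 0.32, edgeR adjusted p = 2.79e-09; 4.51 without replicate 1 of Day 0 and 6.71 without replicate 2). Fn1, fibronectin, was at 976 and 942 CPM at Day 0 and 1780.4 and 1842 CPM at Day 2 (log2 fold change 0.92 ± 0.053, edgeR adjusted p = 1.58e-09). No pair of groups overlapped among these genes.

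Primitive streak genes were mixed and low: of 11 tested, 5 were called higher and 3 lower (median 0.30), and brachyury did not pass. Lhx1, a LIM homeobox gene, was the member with the largest increase, at 0.298 and 0.0604 CPM at Day 0 and 33.5 and 31.7 CPM at Day 2 (log2 fold change 7.56 ± 0.41, edgeR adjusted p = 7.65e-10; 8.94 without replicate 1 of Day 0 and 6.74 without replicate 2), followed by 5.55 and 10.9 CPM at Day 4. Eomes, a T-box factor of the streak, had a log2 fold change of 2.38 ± 0.21, while Mixl1 was called lower at under 2 CPM in every library, a call lost with DESeq2 (log2 fold change -1.6, adjusted p = 0.0747) and without replicate 2 of Day 2 (-1.19, edgeR adjusted p = 0.0553; 0.00274 to 0.0747 over all settings), and it was at -2.15 without replicate 1 of Day 2. Lateral mesoderm and heart genes were called higher in 15 and lower in 1 of 19 (median 4.6, or 3.75 with bounds). The filter favours calls of higher here too, since members with 0 counts at Day 0, such as Osr1, passed it through later libraries. Tbx2 was at 0.224 and 0.121 CPM at Day 0 and 52.3 and 48.1 CPM at Day 2 (log2 fold change 8.18 ± 0.19, edgeR adjusted p = 2.33e-13). Osr1, of intermediate and lateral mesoderm, had 0 counts at Day 0 and 4.55 and 4.45 CPM at Day 2, at least 45-fold higher. Bmp4, a ligand made by mESCs and by mesoderm, was the member called lower, at 103 and 112 CPM at Day 0 and 15.2 and 13.7 CPM at Day 2 (log2 fold change -2.89 ± 0.11, edgeR adjusted p = 2.77e-11).

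Among 18 endothelial and blood genes tested, 15 were called higher and 2 lower (median 3.02). A member with 0 counts at Day 0, such as Fli1, passed the filter only through later libraries, which favours calls of higher. Kdr, the VEGF receptor of early endothelial and blood precursors, was at 2.09 and 2.17 CPM at Day 0 and 94.6 and 97.8 CPM at Day 2 (log2 fold change 5.49 ± 0.10, edgeR adjusted p = 3.07e-14). Fli1, an ETS factor of these lineages, had 0 counts at Day 0 and 13.5 and 15.6 CPM at Day 2, at least 144-fold higher. Etv2, Tal1 and Cdh5 had log2 fold changes of 2.95 ± 0.18, 3.09 ± 0.19 and 5.16 ± 0.21. Against these, Pecam1 fell from 80.7 and 82.4 CPM at Day 0 to 21.5 and 24.3 CPM at Day 2 (log2 fold change -1.84 ± 0.079, edgeR adjusted p = 7.33e-11); mESCs express this adhesion molecule. Gata1 was also called lower, at about 1 CPM or less. Of the 20 genes of this list in the count table, 18 reached the count filter.

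Of 28 neural genes, 11 were called higher and 5 lower (median 0.59, or 0.98 with bounds). Irx3, an Iroquois factor, was at 0.0746 and 0.544 CPM at Day 0 and 56.1 and 56.5 CPM at Day 2 (log2 fold change 7.37 ± 0.26, edgeR adjusted p = 1.12e-11; 6.67 without replicate 1 of Day 0 and 9.44 without replicate 2), and Pax6 at 10.9 and 10.6 CPM at Day 0 and 68.7 and 67.1 CPM at Day 2 (log2 fold change 2.66 ± 0.14, edgeR adjusted p = 5.08e-10). Tubb3, a neuronal tubulin also present in mESCs, fell from 159 and 172 CPM at Day 0 to 13.2 and 12.1 CPM at Day 2 (log2 fold change -3.71 ± 0.11, edgeR adjusted p = 1.45e-12). Nes, the intermediate filament nestin of neural progenitors, did not pass (41.1 and 41.2 CPM at Day 0 and 37.6 and 37.9 CPM at Day 2; log2 fold change -0.13 ± 0.078, edgeR adjusted p = 0.154), and its sign reverses with library totals alone. The Day 0 and Day 2 libraries of Nes lay within 4 CPM. Of 12 neural crest genes, 9 were called higher and 2 lower (median 2.65, or 2.72 with bounds); Sox9 was at 0.373 and 0.121 CPM at Day 0 and 23 and 24.1 CPM at Day 2 (log2 fold change 6.61 ± 0.28, edgeR adjusted p = 4.99e-11; 7.53 without replicate 1 of Day 0 and 5.95 without replicate 2), and Ngfr, a neurotrophin receptor, fell by 2.52 on the log2 scale.

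Of 20 genes of surface ectoderm and simple epithelium, 9 were called higher and 6 lower (median 0.79). Dsp, desmoplakin of the desmosome, was at 36.3 and 31.1 CPM at Day 0 and 579 and 596 CPM at Day 2 (log2 fold change 4.13 ± 0.094, edgeR adjusted p = 1.58e-13). Gata3 was at 2.01 and 2.05 CPM at Day 0 and 46.3 and 44.1 CPM at Day 2 (log2 fold change 4.47 ± 0.14, edgeR adjusted p = 3.78e-12), and Sfn, the 14-3-3 sigma gene, fell by 3.54 on the log2 scale. Cdh1, E-cadherin, changed by under 1.5-fold, at 821 and 839 CPM at Day 0 and 597 and 601 CPM at Day 2. Trophoblast genes gave 7 higher and 6 lower of 16 (median 0.25, or 0.70 with bounds), at a summed 211 and 208 CPM at Day 0 and 153 and 143 CPM at Day 2, and Tead4 and Phlda2 of this list fell (log2 fold changes -2.78 and -2.89). Genes of the epithelial to mesenchymal transition gave 12 higher and 3 lower of 22 (median 0.78), and Cdh11, a mesenchymal cadherin with 3 counts over the Day 0 libraries, was 55.9-fold (counting interval 18.9 to 272) higher (fitted log2 fold change 5.72, or 6.39 without replicate 1 of Day 0). Fibroblast genes gave 12 higher and 1 lower of 15 (median 3.16, or 3.28 with bounds) at low levels, with Col1a2 at 0.448 and 0.242 CPM at Day 0 and 13.2 and 13.5 CPM at Day 2.

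Among signalling pathways, BMP genes were mostly called higher, 17 of 24, and 1, the ligand gene Bmp4, was called lower (median 1.42). Msx1, a homeobox target of BMP signals, was at 0.298 and 0.242 CPM at Day 0 and 25 and 17.1 CPM at Day 2 (log2 fold change 6.28 ± 0.32, edgeR adjusted p = 4.34e-10), and Id3, an inhibitor of bHLH factors that BMP induces, had a log2 fold change of 2.5 ± 0.080. Bmpr1a, the type I receptor, was at 139 and 134 CPM at Day 0 and 287 and 291 CPM at Day 2 (log2 fold change 1.08 ± 0.064, edgeR adjusted p = 1.77e-09). Both libraries of Day 2 exceeded both of Day 0 in each. In the Nodal pathway, 8 of 18 were called higher and 5 lower (median 0.53). Inhbb, an activin subunit, fell from 185 and 196 CPM at Day 0 to 2.34 and 2.51 CPM at Day 2 (log2 fold change -6.29 ± 0.094, edgeR adjusted p = 8.09e-15), while the effector gene Smad3 was called higher (2.06 ± 0.078), as was Lefty1, a secreted inhibitor (1.61 ± 0.072).

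Wnt pathway genes were called higher in 16 and lower in 5 of 30 (median 1.1). Sfrp5, a secreted Wnt antagonist, was at 4.55 and 3.99 CPM at Day 0 and 166 and 161 CPM at Day 2 (log2 fold change 5.27 ± 0.11, edgeR adjusted p = 5.07e-14). The receptor gene Fzd5 fell from 296 and 293 CPM at Day 0 to 47.1 and 47.9 CPM at Day 2 (log2 fold change -2.63 ± 0.059, edgeR adjusted p = 1.33e-13). In the FGF pathway 8 were called higher and 9 lower of 23 (median 0.01), and 9 and 8 with library totals alone. The ligand gene Fgf17 fell from 74.8 and 83.3 CPM at Day 0 to 1.24 and 0.793 CPM at Day 2 (log2 fold change -6.24 ± 0.15, edgeR adjusted p = 2.31e-13), and Fgf4, the ligand by which mESCs prime themselves, fell by 4.22 on the log2 scale, while the receptor gene Fgfr2 was at 19.9 and 19 CPM at Day 0 and 102 and 109.7 CPM at Day 2 (log2 fold change 2.44 ± 0.075, edgeR adjusted p = 2.80e-12). Among these 3 genes the Day 0 and Day 2 libraries did not overlap. Notch genes gave 6 higher and 6 lower of 19 (median 0.36), and 9 and 5 with library totals alone. The Notch ligand gene Dll1 was at 2.24 and 2.05 CPM at Day 0 and 11.5 and 12.8 CPM at Day 2, and Rbpj, the DNA-binding factor of the pathway, at 178 and 177 CPM at Day 0 and 67.1 and 71.1 CPM at Day 2. Dll4 had 3 counts at Day 0 and was 6.27-fold (counting interval 1.97 to 32) higher, with a fitted log2 fold change of 2.59. The call of Dll4 was lost without replicate 1 of Day 0 (1.77, edgeR adjusted p = 0.0636) or replicate 2 of Day 2 (2.06, 0.0604; 0.000299 to 0.0636 over all settings), and without replicate 2 of Day 0, where no Day 0 counts are left, the fitted value was 6.72, which depends on the prior count.

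Among chromatin regulators, calls came at about the shares over all genes tested in several lists. Of 13 DNA methylation and Tet genes, 4 were called higher and 6 lower (median -0.35). Tet1, which oxidizes methylcytosine and is abundant in mESCs, was at 1264 and 1077 CPM at Day 0 and 109 and 128 CPM at Day 2 (log2 fold change -3.3 ± 0.11, edgeR adjusted p = 3.88e-12), while Tet3 was at 18.2 and 19 CPM at Day 0 and 90.3 and 91 CPM at Day 2 (log2 fold change 2.28 ± 0.072, edgeR adjusted p = 3.63e-12). Dnmt3l, the cofactor of the de novo methyltransferases, was at 410.3 and 423 CPM at Day 0 and 19.2 and 20.6 CPM at Day 2 (log2 fold change -4.39 ± 0.10, edgeR adjusted p = 2.13e-13). Tet1 and Dnmt3l were thus high in both Day 0 libraries and Tet3 in both Day 2 libraries. Tet2 and Dnmt3b fell (log2 fold changes -1.6 and -2.05). Polycomb genes gave 7 higher and 10 lower of 29 (median -0.31), and with library totals alone 10 and 4 (median 0.04). Phc2 was at 36.4 and 37.8 CPM at Day 0 and 189 and 180.2 CPM at Day 2 (log2 fold change 2.31 ± 0.064, edgeR adjusted p = 1.03e-12). Jarid2, which recruits PRC2 in mESCs, was at 1081 and 1105 CPM at Day 0 and 564 and 558 CPM at Day 2 (log2 fold change -0.96 ± 0.055, edgeR adjusted p = 1.20e-09). BAF and PBAF subunit genes gave 6 higher and 7 lower of 26 (median -0.25), and with library totals alone 7 and 3 (median 0.10). The ATPase gene Smarca2 was at 3.21 and 2.54 CPM at Day 0 and 28.6 and 31.7 CPM at Day 2 (log2 fold change 3.4 ± 0.14, edgeR adjusted p = 4.18e-11), and Dpf1 fell by 2.9 on the log2 scale. Replacement histone genes gave 4 higher and 3 lower of 11 (median 0.19), with the macroH2A gene H2afy2 at 26.6 and 27.5 CPM at Day 0 and 99.2 and 102 CPM at Day 2 (log2 fold change 1.89 ± 0.084, edgeR adjusted p = 9.25e-11); H2afj fell by 1.56 on the log2 scale.

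Imprinted genes, expressed from a single parental allele, were called higher in 15 and lower in 3 of 26 (median 1.81). They summed to 2283 and 2162 CPM at Day 0 and 7723 and 7987 CPM at Day 2. Peg10, a retrotransposon-derived gene, was at 486 and 452 CPM at Day 0 and 2649 and 2848 CPM at Day 2 (log2 fold change 2.55 ± 0.063, edgeR adjusted p = 3.26e-13). H19, a noncoding RNA, was at 28.1 and 29.1 CPM at Day 0 and 851 and 926 CPM at Day 2 (log2 fold change 4.96 ± 0.075, edgeR adjusted p = 8.65e-15), and Igf2, its neighbour on chromosome 7, had a log2 fold change of 4.07 ± 0.088. Peg3 was at 74 and 70.7 CPM at Day 0 and 1043 and 961 CPM at Day 2 (log2 fold change 3.79 ± 0.087, edgeR adjusted p = 1.83e-13). All were higher in both Day 2 libraries, and H19 was higher again, at 2374 and 2577 CPM at Day 4. Mest and Dlk1 had log2 fold changes of 2.16 ± 0.060 and 4.82 ± 0.17.

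Of 17 germline genes tested, 10 were called higher and 2 lower (median 0.98). Stra8, the retinoic acid response gene that starts meiosis, was at 1.34 and 1.15 CPM at Day 0 and 571 and 605 CPM at Day 2 (log2 fold change 8.89 ± 0.15, edgeR adjusted p = 1.93e-14). Rec8, the meiotic cohesin, was at 15.6 and 16.3 CPM at Day 0 and 274 and 251 CPM at Day 2 (log2 fold change 4.04 ± 0.13, edgeR adjusted p = 5.26e-12). Both groups were far apart for both genes. Genes of 2-cell-like cells were called higher in 12 of 12 tested, of 15 in the count table (median 6.27, or 5.17 with bounds), at a summed 1.12 and 0.967 CPM at Day 0 and 81.8 and 83.9 CPM at Day 2. With so few Day 0 counts the tested members passed the filter through later libraries, so a high share of calls was largely set by it. Zscan4a had 3 counts over the Day 0 libraries and 20.0 and 19.5 CPM at Day 2, a ratio of 198-fold (counting interval 67.4 to 959.8). The Zscan4 copies are nearly identical, so the share of each is uncertain.

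Cell cycle genes were called lower in 13 and higher in 6 of 29 (median -0.52), and with library totals alone in 9 and 9. Ccnd1, cyclin D1, was at 303 and 303 CPM at Day 0 and 16.6 and 16.3 CPM at Day 2 (log2 fold change -4.2 ± 0.11, edgeR adjusted p = 5.41e-13), and Ccne1, cyclin E1, fell by 2.49 on the log2 scale. Ccnd2 and the CDK inhibitor gene Cdkn2b rose (1.69 ± 0.15 and 2.36 ± 0.20). Top2a, at 1261 and 1231 CPM at Day 0 and 657 and 678 CPM at Day 2, lost its call with library totals alone. Cytosolic ribosomal protein genes gave 54 lower and 0 higher of 84 (median -0.75); with library totals alone this was 29 lower and 3 higher (median -0.40), so much of that count rests on the scaling. Rpl4 was at 2818 and 2761 CPM at Day 0 and 1582 and 1636 CPM at Day 2 and lost its call with library totals alone. Many ribosomal protein genes and Gapdh have near-identical pseudogenes, and alignments of low mapping quality were removed, so their levels are uncertain; Gapdh stood at 65.9 and 27.4 CPM at Day 0 and 5.46 and 6.0 CPM at Day 2.

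Oxidative phosphorylation genes gave 31 lower and 1 higher of 78 (median -0.52), and with library totals alone 9 lower and 3 higher. Atp5b, the beta subunit of ATP synthase, was at 2781 and 2831 CPM at Day 0 and 1585 and 1521 CPM at Day 2 (log2 fold change -0.85 ± 0.050, edgeR adjusted p = 1.65e-09), a change that library totals alone bring under 1.5-fold. Glycolysis and hypoxia genes gave 8 higher and 10 lower of 26 (median -0.27), and with library totals alone 9 and 10 (median 0.08), with Pkm, pyruvate kinase, at 2073 and 2149 CPM at Day 0 and 984 and 909 CPM at Day 2 (log2 fold change -1.16 ± 0.058, edgeR adjusted p = 3.06e-10) and the hypoxia gene Car9 at 0.821 and 0.604 CPM at Day 0 and 2.71 and 2.69 CPM at Day 2. Cholesterol synthesis genes, 3 higher and 1 lower of 22 (median -0.06; with library totals alone 6 and 0, median 0.29), were below the background share in both directions.

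For p53 target genes 2 were called higher and 5 lower of 22 (median -0.12), and with library totals alone 7 and 4 (median 0.23), with Trp53 itself at 619 and 607 CPM at Day 0 and 262 and 266 CPM at Day 2 and Gdf15 lower (-3.32 ± 0.23). Integrated stress response genes gave 3 higher and 10 lower of 19 (median -0.59). Cth, which makes cysteine from cystathionine, was at 209.6 and 207 CPM at Day 0 and 14.9 and 15 CPM at Day 2 (log2 fold change -3.8 ± 0.070, edgeR adjusted p = 2.49e-14). Atf3, an induced bZIP factor, was at 2.31 and 2.48 CPM at Day 0 and 14.8 and 17.9 CPM at Day 2 (log2 fold change 2.76 ± 0.17, edgeR adjusted p = 3.27e-09). Immediate early genes gave 5 higher and 9 lower of 18 (median -0.62). In that list Jun was at 10.1 and 10.4 CPM at Day 0 and 155 and 156 CPM at Day 2 (log2 fold change 3.92 ± 0.14, edgeR adjusted p = 8.51e-12) and Myc at 149 and 159 CPM at Day 0 and 15.8 and 18.5 CPM at Day 2 (log2 fold change -3.17 ± 0.10, edgeR adjusted p = 4.22e-12), and neither overlapped between the days. Interferon response genes gave 11 higher and 3 lower of 19 (median 0.72). Ifitm2, a membrane protein that blocks viruses, was at 191 and 228 CPM at Day 0 and 339 and 311 CPM at Day 2 and lost its call without replicate 1 of Day 0 or of Day 2, where its change fell below 1.5-fold (log2 fold changes 0.51 and 0.57).

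Cathepsins are proteases of the lysosome, and cystatins inhibit them. Of 14 tested, 10 were called higher and 1 lower (median 1.25). Ctsl, cathepsin L, was at 134 and 144 CPM at Day 0 and 372 and 394 CPM at Day 2 (log2 fold change 1.46 ± 0.071, edgeR adjusted p = 2.17e-10). Ctsh, an aminopeptidase, was at 0.0746 and 0.242 CPM at Day 0 and 12.1 and 9.79 CPM at Day 2 (log2 fold change 5.99 ± 0.35, edgeR adjusted p = 1.54e-09; 7.09 without replicate 2 of Day 0). Both Day 2 libraries of each exceeded both Day 0 libraries. Of 30 lysosome genes, 19 were called higher and 3 lower (median 0.72). Psap, the saposin precursor, was at 234 and 239 CPM at Day 0 and 581 and 544 CPM at Day 2 (log2 fold change 1.25 ± 0.057, edgeR adjusted p = 1.22e-10), while Tfeb, a transcription factor of lysosome genes, fell from 55.9 and 53.6 CPM at Day 0 to 4.55 and 3.35 CPM at Day 2 (log2 fold change -3.77 ± 0.14, edgeR adjusted p = 2.26e-11).

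**Figure D4:**
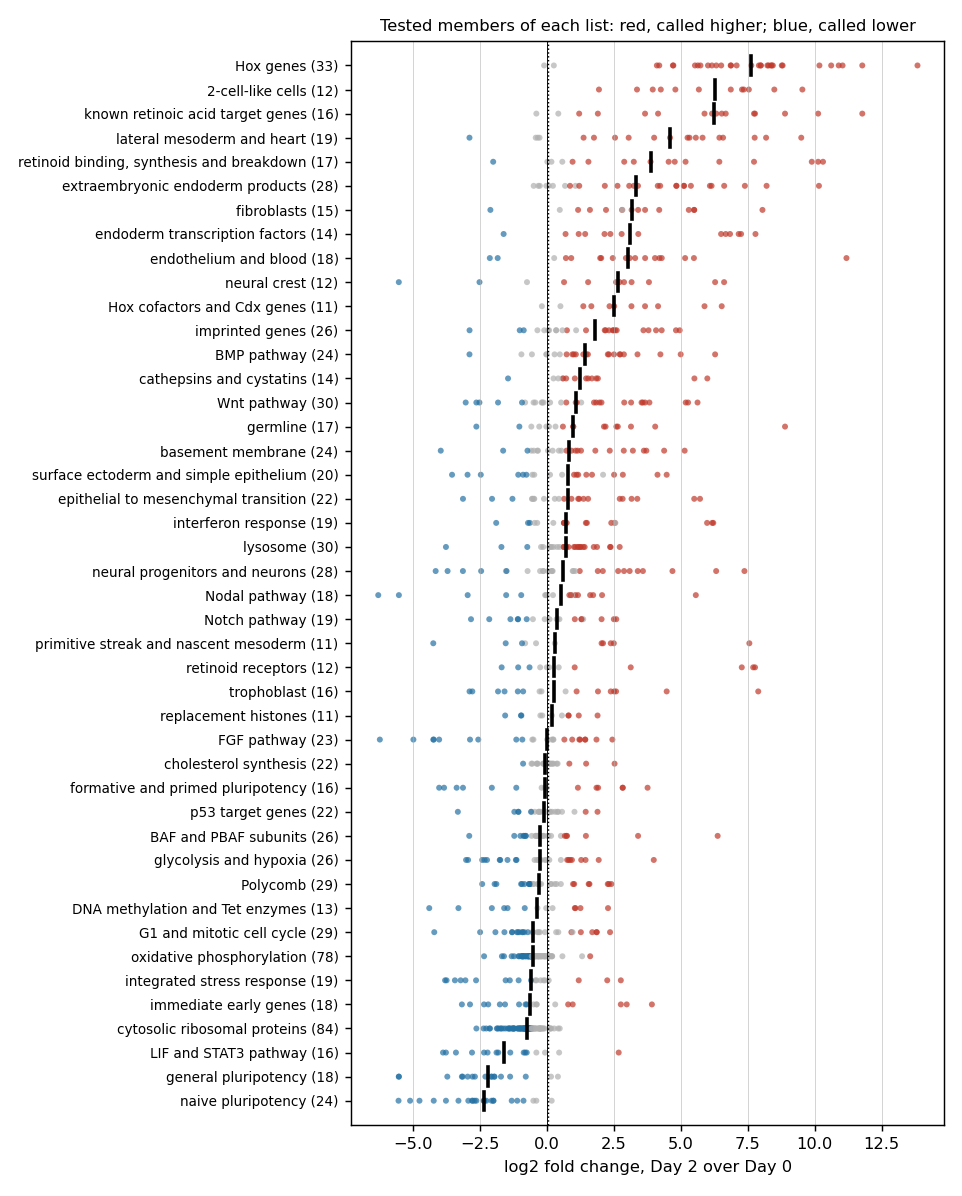
Fitted log2 fold change of Day 2 over Day 0 (x axis) of the tested members of 44 gene lists (1 a line, number tested in brackets); points are genes, red called higher, blue called lower and grey not called, black bars are list medians and the dotted line is the median over all genes tested. Hox genes lie highest, with a median of 7.63, and naive pluripotency genes lowest, with -2.36; the medians of 6 lists near 0 change sign with library totals alone.

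Outside the lists, the largest increases among genes at 10 CPM or more included a gut peptide hormone gene. Pyy, peptide YY, had 0 counts at Day 0 and 55.2 and 69.3 CPM at Day 2, at least 612-fold higher, then 1.4 and 0.902 CPM at Day 4. The ion channel gene Asic2 and the Wnt antagonist gene Frzb had 0 counts at Day 0 and were at least 129-fold and at least 136-fold higher. Pyy was thus low again at Day 4, near 1 CPM. The largest decreases included Chrna9, a nicotinic receptor subunit, at 35.3 and 31.2 CPM at Day 0 and 0.10 and 0.176 CPM at Day 2 (log2 fold change -7.89 ± 0.23, edgeR adjusted p = 2.04e-12) and Krt17, a keratin (-6.8 ± 0.15). Nkx6-3, Lgals3, Pou4f2, Slc7a3 and Lrrc2 also fell by more than 5 on the log2 scale (-6.09, -5.49, -5.24, -5.09 and -5.08); Pou4f2 was at -6.36 without replicate 1 of Day 2.

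By absolute CPM, the largest gains were in Peg10, above, and in the growth factor gene Mdk, at 141 and 151 CPM at Day 0 and 2037 and 1997 CPM at Day 2 (log2 fold change 3.79 ± 0.084, edgeR adjusted p = 1.16e-13), and Scd2, a fatty acid desaturase, was at 314 and 344 CPM at Day 0 and 957 and 1053 CPM at Day 2 (log2 fold change 1.61 ± 0.069, edgeR adjusted p = 6.88e-11). Among decreases, Hsp90ab1, a chaperone, was at 9227 and 9781 CPM at Day 0 and 5676 and 5547 CPM at Day 2 and Ncl, nucleolin, at 5024 and 5044 CPM at Day 0 and 1359 and 1457 CPM at Day 2 (log2 fold change -1.84 ± 0.054, edgeR adjusted p = 1.98e-12). Npm1, Trim28, Actb and Pabpc1, also fell (log2 fold changes -1.31, -1.41, -1.22 and -1.09). Hsp90ab1 and Hnrnpu lost their calls with library totals alone. In all, 645 tested genes had at most 3 counts over the Day 0 libraries and 536 of them were called higher, while 55 had at most 3 over the Day 2 libraries and 22 were called lower. Genes this low on 1 day passed the filter through the libraries where they are high, at the other day or at Day 4, so large shares of calls among them follow from the filter. Longer transcripts leaned higher: the median log2 fold change was -0.15 in the shortest of 4 equal groups of genes by length (median exonic length 1571 bases) and 0.16 in the longest (7409 bases), a difference smaller than that of most lists above, and its part in them was not tested.

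The shCTSL line shares no library with shSC. Its target, Ctsl, was measured on the scale of all 12 libraries. It stood at 39.2 and 37.5 CPM at Day 0 and 211 and 155 CPM at Day 2 in shCTSL, against 137 and 147 and then 369 and 391 CPM in shSC. It was lower in every shCTSL library than in every shSC library of the same day. Of the 4852 genes called higher in shSC and measured in both fits, 99.1% were higher in shCTSL, against 52.4% of all genes, and of 3861 called lower 98.1% were lower, against 47.6%. The difference between the lines in this change was tested for 15532 genes over all 12 libraries: edgeR called 0 (0%) and limma-voom 0, DESeq2 called 24, and 1716 had an unadjusted edgeR p under 0.05. For Ctsl the difference was 0.83 ± 0.20 on the log2 scale (edgeR adjusted p = 0.390). Replicate 1 of shCTSL Day 2 stood apart from replicate 2. The ribosomal RNA gene Rn45s took 3.43% of its counts against 0.553%, and the top 100 genes took 16.5% against 12.1%. In shSC, Rn45s also varied, with 0.217 and 0.293% at Day 0, 0.170 and 0.726% at Day 2 and 1.43 and 1.06% at Day 4. Whether the gap between the shCTSL Day 2 replicates bears on the difference between the lines was not tested. The count of 0 changed with the shCTSL Day 2 libraries, whose replicates differed most of the 6 groups (SD of the log2 ratio 0.605): without its replicate 1, 301 genes were called, and without its replicate 2, 4124.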

How the data were processed

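Read counts per RefSeq gene, which the authors made with STAR 2.3.0e on mm9 and featureCounts 1.6.2 after SAMtools 0.1.19 removed alignments of mapping quality under 10, mitochondrial reads and contigs, were taken as deposited for 24495 genes and 12 libraries of poly(A) RNA. The authors' own test, with DESeq2 1.16.1, was not used. Samples were grouped by title. The 6 shSC libraries were fitted with edgeR 4.0.16 in R 4.3.3 (filterByExpr with a minimum count of 10, TMM, quasi-likelihood test, Benjamini-Hochberg adjustment); Day 2 was compared with Day 0, and a call needed an adjusted p under 0.05 and 1.5-fold. The difference between lines was an interaction term over all 12 libraries with 6 residual degrees of freedom. Tables and figures were made with Python 3.11.15, numpy 2.4.6, pandas 2.3.3, scipy 1.17.1 and matplotlib 3.10.9. Of the gene names, 20380 matched GENCODE M1 by symbol, 1677 by another name and 196 at several loci, and 2242 had no match; lengths and mm9 positions come from there.

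Named genes were the 15 highest and 15 lowest changes among called genes with at least 10 CPM in the higher group, the 10 called genes in each direction with the largest difference in CPM, up to 4 genes a list (largest changes and highest CPM), the genes the study names, called cell type markers, and up to 5 called genes with at most 3 counts at Day 0; predicted loci were left out, and some genes that meet this rule are not reported here. Chosen after their values were seen were Esrrb, Fgf4, Nr0b1, Utf1, Tbx3, Lin28b, Otx2, Dnmt3b, Tet2, Stat3, Ccne1, Ccnd2, Igf2, Rara, Rxra, Nr2f1, Crabp2, Dhrs3, Aldh1a2, Hoxb4, Hoxb8, Hoxb13, Hoxc13, Hoxd13, Cdx1, Col4a1, Col4a2, Lefty1, Id3, Sox9, Gbx2, Dppa3, Tcf3 and Cebpb. The members and the 44 lists were chosen with earlier results of these data known. Alternatives were RLE normalization, DESeq2 1.42.0, limma-voom 3.58.1, no filter, a filter of 1 CPM in 2 libraries, a replicate block, no fold threshold, a log2 threshold of 1.5, other sets of libraries and leaving out each library; scaling by library totals was added after seeing the data.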

Additional observations from a re-analysis of the deposited data

How the results depend on the processing

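Of 235 named genes tested, 187 kept direction and call under each of the 18 alternatives that tested them, 48 changed in at least 1 and 3 of these changed sign, none of them called with the main settings: with library totals alone Apoe was at 0.029, Nes at 0.22 and Hoxc13 at 0.25, and Hoxc13 ranged from -0.26 to 0.039 with 1 library left out. The change of scale by itself moves these values up. Genes called numbered 8192 with DESeq2, 8693 with limma-voom and 8405 to 8943 with 1 library left out (4642 to 5011 higher, 3762 to 3952 lower), where a lone library is assumed to vary like the other groups. A log2 threshold of 1.5 left 3831, 2803 higher and 1028 lower; no fold threshold gave 5832 lower, and library totals alone 2314 lower. For the difference between the lines, against 0 with edgeR, DESeq2 called 24 and edgeR without a count filter 4, and leaving out 1 library gave 0 to 4124; the cause was not tested.

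Replicate numbers are shared between days, but over genes the differences between replicates 1 and 2 were not correlated between days (-0.02, 0.04 and -0.05). These differences are mostly small and noisy, so the correlations cannot show whether libraries of the same number shared a culture or batch. With the replicate block 8719 genes were called, 4854 higher and 3865 lower, and 0 for the difference between the lines.

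There was 1 control line with 2 libraries a group, and the changes of medium, culture form and time came together. Counting depth limits genes under about 1 CPM, and their fitted changes depend on the prior count. CPM measures shares of poly(A) RNA, so a change in RNA per cell was not measured.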
